A study of Mus musculus with 10 samples.

Results

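The proteasome genes are 35 nuclear genes of 12345 tested. They were chosen by name: symbols that start with Psma, Psmb, Psmc or Psmd and a digit, without the immunoproteasome subunits Psmb8, Psmb9 and Psmb10 and without 5 names ending in -ps, which mark pseudogenes. In all 37 names matched, and 35 reached the filter, 1 FPKM or more in 2 or more libraries; Psma8, the germ cell alpha subunit, and Psmb11, the thymus beta subunit, did not pass. The 35 hold 7 alpha ring genes, 7 beta ring genes, 6 ATPases, 11 non-ATPase subunits and 3 chaperones of the regulatory particle (Psmd5, Psmd9 and Psmd10). Psmc3ip also carries the name, but its protein acts in meiotic recombination and is not a proteasome subunit. The other 34 of the 35 encode proteasome subunits or these chaperones.

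The proteasome is the protease that degrades most short-lived and misfolded proteins of the cytosol and nucleus after they have been tagged with ubiquitin. Its core particle is a barrel of alpha rings, which gate the entrance, around beta rings, of which Psmb6, Psmb7 and Psmb5 carry the caspase-like, trypsin-like and chymotrypsin-like active sites. The regulatory particle on the end of the barrel has a ring of ATPases (Psmc1 to Psmc6) that unfolds substrates, and non-ATPase subunits that bind ubiquitin, cut it off and hold the particle together. Cells exposed to interferon replace the active subunits by Psmb9, Psmb10 and Psmb8, and the factor Nfe2l1 raises transcription of proteasome genes when protease activity falls.

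Bulk RNA-seq was made at day 14 from tumours that 4T1 cells, an established mouse breast cancer line, formed under the skin. The 5 groups of 2 libraries are a negative control, named PBS in the design text; Free-MK1775, the WEE1 kinase inhibitor MK1775 in free form; Free-MK1775+NLG919, the same with NLG919, an inhibitor of the IDO1 pathway; Lipo-MK1775, a Lipo form of the inhibitor; and Lipo-MK1775+NLG, which the design text spells with NLG919. The sources used here do not state the mouse strain, the doses, the make-up of either form or whether each library is its own mouse, so p-values measure only the spread between these samples, which may be technical.

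Levels are given as nuclear TPM: the deposited FPKM of a gene, rescaled so that all transcripts outside the mitochondrial genome sum to 1000000 in each library. Mitochondrial transcripts took up 64.1% and 55.99% of summed FPKM in the Lipo-MK1775 libraries and 47.3% in Free-MK1775+NLG919 replicate 2, against 2.88% to 4.82% in the other 7. These 3 are called the high-mitochondrial libraries below, and as both Lipo-MK1775 libraries are among them, that treatment and the high mitochondrial share cannot be told apart. The table holds no read counts, so the depth behind each value is unknown. The 4T1 epithelial markers were measured (6 of 8 passed the filter, summed to 942 to 1899 nuclear TPM per library), and in a bulk tumour fewer cells of a type and less RNA per cell cannot be told apart.

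Promoter sequences are shown for a few genes, picked with the results below known. Psmb5 and Psmb6 hold the core of an antioxidant response element. Psmd11 and Psmd12 were lower in Lipo-MK1775, and Psmb3 and Psmd4 were not. RefSeq promoter windows (assembly GRCm38.p6, 250 bases before to 50 after the start, 300 in all) were found for 29 of the 35 genes, and the last 130 bases before the start are printed 5′ to 3′ on the gene's strand. Capitals mark TGACNNNGC in Psmb5 (chr14:54617996-54618125, minus strand) and Psmb6 (chr11:70525227-70525356, plus strand). They mark the ETS-type motif CCGGAAG, read from the opposite strand, in Psmd11 (chr11:80428485-80428614, plus strand) and Psmd12 (chr11:107479398-107479527, plus strand). In Psmb3 (chr11:97703304-97703433, plus strand) they mark the NF-Y box CCAAT at both places, and in Psmd4 (chr3:95042615-95042744, minus strand) CCGGAAG followed by CCAAT read from the opposite strand.
Psmb5: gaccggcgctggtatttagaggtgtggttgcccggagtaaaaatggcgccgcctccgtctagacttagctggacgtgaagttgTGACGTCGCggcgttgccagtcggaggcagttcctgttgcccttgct
Psmb6: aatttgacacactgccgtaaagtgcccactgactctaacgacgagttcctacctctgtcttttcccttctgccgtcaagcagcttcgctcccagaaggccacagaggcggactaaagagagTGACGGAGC
Psmd11: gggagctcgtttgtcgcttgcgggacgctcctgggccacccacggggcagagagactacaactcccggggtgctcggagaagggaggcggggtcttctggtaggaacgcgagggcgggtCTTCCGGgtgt
Psmd12: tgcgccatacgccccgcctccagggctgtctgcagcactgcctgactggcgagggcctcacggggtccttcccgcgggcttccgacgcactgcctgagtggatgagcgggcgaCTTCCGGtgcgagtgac
Psmb3: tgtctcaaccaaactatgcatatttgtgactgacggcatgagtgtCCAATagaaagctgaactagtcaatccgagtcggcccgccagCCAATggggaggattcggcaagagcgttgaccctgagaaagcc
Psmd4: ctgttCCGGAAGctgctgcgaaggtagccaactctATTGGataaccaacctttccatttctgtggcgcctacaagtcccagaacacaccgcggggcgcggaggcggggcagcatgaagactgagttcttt

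Searched on both strands of the 300-base windows, CCGGAAG was present in 11 of the 29 matched proteasome genes (37.9%), against 21.1% of the 9272 tested genes with a window and 9.93% of all 27025 genes with one. The antioxidant core TGACNNNGC was in 5 of 29 (17.2%), against 17% and 14%; these were Psmb5, Psmb6, Psmd9, Psmd12 and Psmc6. CCAAT was in 12 (41.4%, against 42.8% and 41.1%) and the SP1-type box GGGCGG in 18 (62.1%, against 69.2% and 38.2%). Of the 6 genes printed, Psmd4 and Psmd11 each hold CCGGAAG, and their levels in Lipo-MK1775 lay on opposite sides of the control. Of the genes called lower in Lipo-MK1775 below, only Psmd11 and Psmd12 hold it. The windows of Psma1, Psma3, Psmd1, Psmd8 and Psmd14 do not, and Psmd3 had no window. The matches are a description of letters in these windows; 2 genes, Psma6 and Psmc2, have 2 windows each, and a gene was counted where any window held the motif. Matches shared bases in 5 of the 31 windows: those of the same motif in Psmd1, Psmd14, Psma4 and Psma7, and TGACNNNGC with GGGCGG in Psmd9.

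Proteasome genes were among the highly expressed genes of these tumours. Their median gene varied less than the median of all genes tested across the 7 libraries of low mitochondrial share. Their mean level over the 10 libraries ran from 11.8 nuclear TPM for Psmd8, summed over transcripts that carry its name, to 447 for Psma7, with a median of 154. Of the 35, 33 lay above the median of all genes tested (18.4) and 27 in the top 10% of genes. The genes summed to 0.620% to 0.659% of nuclear FPKM in the 7 libraries of low mitochondrial share and to 0.437% to 0.468% in the 3 of high share. Between the highest and lowest of the 7 libraries the median gene of the set differed by 1.24 times, and Psmd8, the most variable, by 8.54 times. The median of all genes tested differed by 1.65 times, computed on levels + 1. Genes of like level were not compared, so the smaller spread cannot be read as particular to the proteasome.

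**Figure D1:**
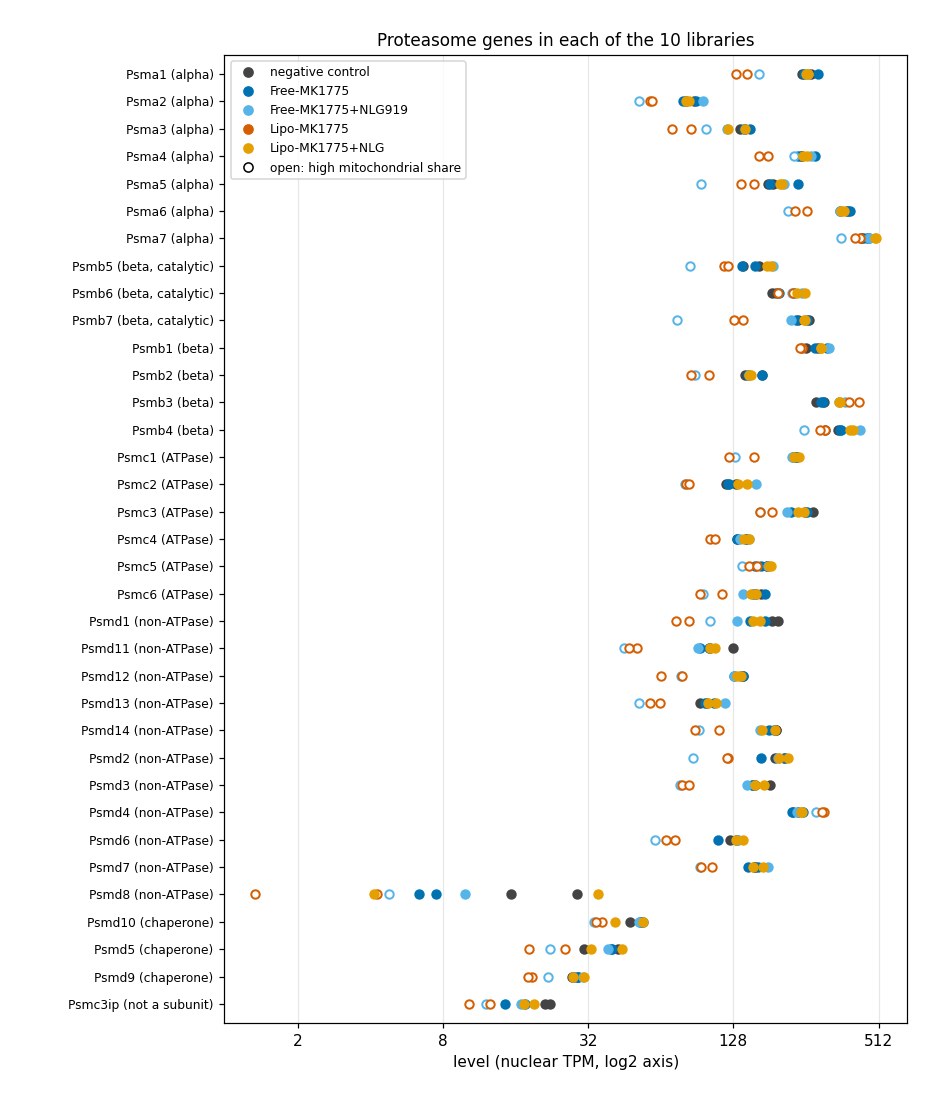
Level of each of the 35 proteasome genes (nuclear TPM, log2 axis) in the 10 libraries, with 1 point per library, coloured by group and open for the 3 libraries of high mitochondrial share; the word in brackets is the role. The open points lie left of all filled points for 29 genes and right of them for Psmb3 and Psmd4, on this scale; under median-of-ratios scaling 1 gene has them all left and 11 all right.

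On this scale 29 of the 35 genes were lower in all 3 high-mitochondrial libraries than in all of the other 7, a pattern that 53.2% of all genes tested had. The other way round stood Psmb3 and Psmd4 (2.85% of all genes). The order depends on the scaling: with median-of-ratios factors, which centre the middle of all genes, 1 proteasome gene was lower in all 3 libraries and 11 were higher. The sign of most values in Lipo-MK1775 thus depends on the scaling, and the values below are given beside the median of all genes.

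In Lipo-MK1775 against the control, which asks what the Lipo form did on its own, limma called 8 of the 35 genes lower and 0 higher at an adjusted p under 0.05, where it called 25.2% of all genes lower, 1.6% higher and 26.7% in either direction; 18 of the 35 had an unadjusted p under 0.05 (47.7% of all genes). The 8 were 2 alpha subunits, Psma1 and Psma3, and 6 non-ATPase subunits, Psmd1, Psmd3, Psmd8, Psmd11, Psmd12 and Psmd14; of 7 beta subunits, 6 ATPases and 3 chaperones 0 were called, with 2, 3 and 1 at an unadjusted p under 0.05. The median difference of the 35 was -0.65 on the log2 scale, and that of all genes tested was -0.86. The libraries of the 2 groups did not overlap for 32 genes that were lower and 3 that were higher, against 72.8% and 7.69% of all genes. Under median-of-ratios scaling the median was 0.23 (all genes -0.06), and Psma7, Psmb3 and Psmb4 were called higher with 0 called lower.

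**Figure D2:**
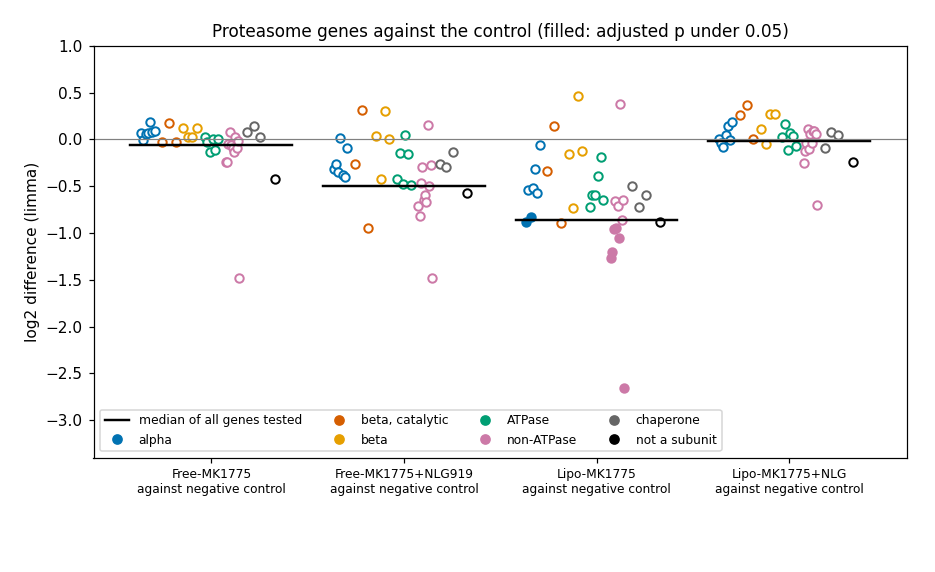
Log2 difference of each proteasome gene from the control (limma, nuclear TPM + 1) for the 4 treated groups, coloured by role, filled where the adjusted p was under 0.05; the black line is the median of all genes tested. In Lipo-MK1775 8 points are filled, 6 of them non-ATPase subunits, and the line lies at -0.86; under median-of-ratios scaling 3 genes were called higher there and 0 lower.

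The count rests on the whole design. It was 0 without either control library, either Lipo-MK1775 library or either Lipo-MK1775+NLG library, with 7 to 14 genes at an unadjusted p under 0.05, and 1 (Psmd1) without either Free-MK1775 library. Without either control library the fit called 0 of all genes tested. Without either Free-MK1775+NLG919 library, 29 genes were called, 27 lower and 2, Psmb3 and Psmd4, higher, where the same fits called 57.5% and 57.4% of all genes. The median difference over the 35 stayed between -0.65 and -0.60 in all 10 of these fits.

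The alpha ring genes, which build the outer rings and the gate, had mean levels from 76.8 (Psma2) to 447 (Psma7). The control libraries held Psma1 at 268 and 247 nuclear TPM, those of Free-MK1775 at 288 and 251, of Free-MK1775+NLG919 at 261 and 163, of Lipo-MK1775 at 146 and 132 and of Lipo-MK1775+NLG at 255 and 261 (GRCm39 chr7:113863841-113875353). Psma1 was lowest in the 3 high-mitochondrial libraries, and the other 7 did not overlap with them. It fell in Lipo-MK1775 from 258 ± 14.4 (SD, n = 2) to 139 ± 10.1, a log2 difference of -0.89 (SE 0.25, adjusted p = 0.0368), which was 0.00 under median-of-ratios scaling. For Psma3 the levels were 136 and 143 nuclear TPM in the control, 149.5 and 142 with Free-MK1775, 121 and 98.7 with Free-MK1775+NLG919, 71.1 and 85.3 with Lipo-MK1775 and 143 and 122 with Lipo-MK1775+NLG. Psma3 fell by the same test, with a difference of -0.83 (SE 0.22, adjusted p = 0.0326) that was 0.05 under median-of-ratios scaling, and again the 3 libraries did not overlap with the rest.

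Psma7 and Psma2 mark the ends of the range. In Lipo-MK1775 Psma7 was at 430.6 and 411 nuclear TPM, against 431.1 and 443 in the control, 469 and 461 in Free-MK1775, 467 and 359 in Free-MK1775+NLG919 and 495 and 499 in Lipo-MK1775+NLG. Its lowest library was Free-MK1775+NLG919 replicate 2, and both Lipo-MK1775 libraries lay just under both controls, at a difference of -0.06 (SE 0.19, adjusted p = 0.827). Under median-of-ratios scaling Psma7 was called higher, at 0.83. Psma2 stood at 88.3 and 81.4 in the control, 89.5 and 79.1 in Free-MK1775, 95.8 and 51.8 in Free-MK1775+NLG919, 57.6 and 58.7 in Lipo-MK1775 and 84.2 and 81.5 in Lipo-MK1775+NLG. For Psma2 the 3 high-mitochondrial libraries were the lowest, and the Lipo-MK1775 difference was -0.54 (SE 0.29, adjusted p = 0.169). Psma4 (-0.52), Psma5 (-0.31) and Psma6 (-0.57) were not called either, and the 7 genes had a median of -0.54.

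The beta ring was the most uneven part of the core particle. The control libraries held Psmb3 at 281 and 305 nuclear TPM, those of Free-MK1775 at 301 and 296, of Free-MK1775+NLG919 at 351 and 371, of Lipo-MK1775 at 386 and 423 and of Lipo-MK1775+NLG at 349.8 and 355 (GRCm39 chr11:97594225-97604326). Psmb3, a subunit without an active site, was highest in the 3 high-mitochondrial libraries, and in Lipo-MK1775 it stood 0.46 (SE 0.18, adjusted p = 0.0762) from the control, above the all-gene median and not called; it was called higher under median-of-ratios (1.35) and quantile scaling (0.61). For Psmb7 the levels were 238 and 264 nuclear TPM in the control, 234 and 259 with Free-MK1775, 223 and 75.0 with Free-MK1775+NLG919, 128 and 139.8 with Lipo-MK1775 and 253 and 250.2 with Lipo-MK1775+NLG. Psmb7, the trypsin-like subunit, had its lowest value in Free-MK1775+NLG919 replicate 2 and its next lowest in both Lipo-MK1775 libraries, at -0.90 (SE 0.42, adjusted p = 0.12) with a 95% interval of -1.85 to 0.05.

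The other 2 active subunits differed from Psmb7. In Lipo-MK1775 Psmb6 was at 195 and 225 nuclear TPM, against 186 and 193 in the control, 229 and 198 in Free-MK1775, 247 and 224 in Free-MK1775+NLG919 and 235 and 254 in Lipo-MK1775+NLG. Psmb6, the caspase-like subunit, did not set the high-mitochondrial libraries apart: its lowest values were those of the control, and its Lipo-MK1775 difference was 0.15 (SE 0.19, adjusted p = 0.551). Psmb5 stood at 140.0 and 163 in the control, 139.5 and 157 in Free-MK1775, 187 and 84.7 in Free-MK1775+NLG919, 117 and 121 in Lipo-MK1775 and 184 and 177 in Lipo-MK1775+NLG. Psmb5, the chymotrypsin-like subunit, was lowest in the 3 high-mitochondrial libraries, with a Lipo-MK1775 difference of -0.34 (SE 0.33, adjusted p = 0.419).

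Psmb4 and Psmb2 were the highest and lowest beta genes by mean level (344 and 135). The control libraries held Psmb4 at 308 and 348 nuclear TPM, those of Free-MK1775 at 353 and 357, of Free-MK1775+NLG919 at 430.4 and 252, of Lipo-MK1775 at 308 and 293 and of Lipo-MK1775+NLG at 390.1 and 399.6. In Lipo-MK1775 Psmb4 was -0.12 (SE 0.26, adjusted p = 0.71), and 0.77 and called higher under median-of-ratios scaling. For Psmb2 the levels were 168 and 143 nuclear TPM in the control, 169 and 148 with Free-MK1775, 148 and 89.2 with Free-MK1775+NLG919, 85.3 and 102 with Lipo-MK1775 and 148 and 152 with Lipo-MK1775+NLG. Psmb2 stood at -0.73 (SE 0.27, adjusted p = 0.0697), with all 3 high-mitochondrial libraries below the rest, and Psmb1 at -0.15. The 7 beta genes had a median of -0.15 in Lipo-MK1775.

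The 6 ATPases, which unfold the substrate and open the gate, spanned a narrower range, from -0.72 (Psmc1) to -0.19 (Psmc5) in Lipo-MK1775, with a median of -0.59 and 0 called. In Lipo-MK1775 Psmc3 was at 165 and 184 nuclear TPM, against 275 and 253 in the control, 221 and 258 in Free-MK1775, 214 and 166 in Free-MK1775+NLG919 and 250.1 and 237 in Lipo-MK1775+NLG. Psmc3, the highest ATPase by mean level (222), was -0.59 (SE 0.21, adjusted p = 0.0632) in Lipo-MK1775. Psmc2 stood at 119 and 132 in the control, 123 and 122 in Free-MK1775, 158 and 80.8 in Free-MK1775+NLG919, 81.5 and 83.5 in Lipo-MK1775 and 146 and 134 in Lipo-MK1775+NLG. Psmc2, the lowest (118), was -0.60 (SE 0.30, adjusted p = 0.143). In both genes the 3 high-mitochondrial libraries were below the rest. Among the ATPases Psmc4 and Psmc5 did not separate these libraries. Psmc5 reached 161 in Lipo-MK1775 replicate 2, above the 158 of Free-MK1775 replicate 2. For Psmc4 the 149 in Free-MK1775+NLG919 replicate 2 was level with its highest in the other groups, while both Lipo-MK1775 libraries, at 103 and 108, were its lowest.

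The 11 non-ATPase subunits held 6 of the 8 calls and had a median of -0.95 in Lipo-MK1775. The control libraries held Psmd1 at 196 and 186 nuclear TPM, those of Free-MK1775 at 150.2 and 172, of Free-MK1775+NLG919 at 132 and 103, of Lipo-MK1775 at 73.7 and 83.6 and of Lipo-MK1775+NLG at 166 and 154 (GRCm39 chr1:85992109-86067021). Psmd1, a large scaffold subunit of the regulatory particle, had no overlap between the high-mitochondrial libraries and the rest. It fell in Lipo-MK1775 from 191 ± 7.30 (SD, n = 2) to 78.7 ± 6.98, a difference of -1.27 (SE 0.21, adjusted p = 0.0236). It was -0.39 under median-of-ratios scaling, and -0.79 (adjusted p = 0.0183) once assembled transcripts without a gene name were added to the gene of their locus.

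Further non-ATPase subunits, from the lid of the particle, fell as well. For Psmd3 the levels were 181 and 158 nuclear TPM in the control, 154 and 153 with Free-MK1775, 146 and 76.7 with Free-MK1775+NLG919, 78.3 and 83.8 with Lipo-MK1775 and 158 and 171 with Lipo-MK1775+NLG. In Lipo-MK1775 Psmd11 was at 51.1 and 47.4 nuclear TPM, against 128 and 103 in the control, 93.1 and 101 in Free-MK1775, 91.5 and 45.2 in Free-MK1775+NLG919 and 102 and 107 in Lipo-MK1775+NLG. Psmd12 stood at 140.3 and 137 in the control, 140.2 and 128 in Free-MK1775, 129 and 77.5 in Free-MK1775+NLG919, 78.5 and 64.3 in Lipo-MK1775 and 138 and 133 in Lipo-MK1775+NLG. In each the 3 high-mitochondrial libraries lay below the other 7, and the differences in Lipo-MK1775 were -1.05 (SE 0.29, adjusted p = 0.0366) for Psmd3, -1.20 (SE 0.32, adjusted p = 0.034) for Psmd11 and -0.96 (SE 0.27, adjusted p = 0.0364) for Psmd12. The control libraries held Psmd14 at 193 and 193 nuclear TPM, those of Free-MK1775 at 180.2 and 189, of Free-MK1775+NLG919 at 164 and 91.9, of Lipo-MK1775 at 112 and 89.0 and of Lipo-MK1775+NLG at 190.2 and 169. Psmd14, the enzyme that cuts ubiquitin from the substrate, fell as well (-0.95, SE 0.28, adjusted p = 0.0423). Under median-of-ratios scaling these genes were at -0.17, -0.32, -0.07 and -0.06, with 0 of them called.

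Psmd4, which binds ubiquitin chains, was above the control in Lipo-MK1775. For Psmd4 the levels were 227 and 236 nuclear TPM in the control, 225 and 248 with Free-MK1775, 235 and 282 with Free-MK1775+NLG919, 304 and 298 with Lipo-MK1775 and 245 and 246 with Lipo-MK1775+NLG (GRCm39 chr3:94940005-94949925). The 3 high-mitochondrial libraries were its highest. Its difference there was 0.38 (SE 0.19, adjusted p = 0.141) with a 95% interval of -0.05 to 0.81, not called, and 1.27 (adjusted p = 0.0553) under median-of-ratios scaling. Psmd2 (-0.71), Psmd6 (-0.86), Psmd7 (-0.65) and Psmd13 (-0.66) were lower in both Lipo-MK1775 libraries than in both controls and were not called.

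Psmd8, the lowest member, depended on how transcripts were assigned. In Lipo-MK1775 Psmd8 was at 4.29 and 1.34 nuclear TPM, against 28.8 and 15.4 in the control, 6.36 and 7.46 in Free-MK1775, 9.87 and 4.76 in Free-MK1775+NLG919 and 35.2 and 4.13 in Lipo-MK1775+NLG, so replicates of the control and of Lipo-MK1775+NLG differed widely. These values come from transcripts that carry its name; a transcript of the same locus without a name held 84.3% to 99.4% of the locus. With it Psmd8 stood at 271 and 256 nuclear TPM in the control and 162 and 209 in Lipo-MK1775. The fall of -2.65 (SE 0.85, adjusted p = 0.0485) then became -0.51 (adjusted p = 0.0674) and was not called.

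The chaperones of the regulatory particle were the lowest true proteasome genes apart from Psmd8, with mean levels from 26.2 (Psmd9) to 46.0 (Psmd10). In Lipo-MK1775 Psmd5 was -0.72, Psmd9 -0.60 and Psmd10 -0.50, with 0 called. Psmc3ip, the recombination gene, was -0.88 (adjusted p = 0.0538).

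Free-MK1775 alone, which asks for the effect of the free inhibitor, had proteasome levels close to the control. Limma called 0 of the 35 (0.0081% of all genes), and 0 had an unadjusted p under 0.05 (1.5% of all genes). The median difference from the control was 0.01, against -0.06 for all genes, with 18 genes higher and 17 lower. The genes with the smallest p in each direction were Psmb6 (0.17), Psmb1 (0.12) and Psma5 (0.18) among the higher, and Psmd8 (-1.49), Psmc3ip (-0.42) and Psmd1 (-0.24) among the lower. Libraries did not overlap for 4 higher and 7 lower genes, against 13.2% and 20.5% of all genes.

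Free-MK1775+NLG919 held 1 library of each kind, and its proteasome values followed that split. Limma called 0 of 35 against the control (0.0324% of all genes), with 5 at an unadjusted p under 0.05 (23.7% of all genes), and the median was -0.32 (all genes -0.49), or 0.21 under median-of-ratios scaling. Libraries did not overlap for 2 higher and 12 lower genes, against 9.33% and 43% of all genes. Psmd1 (-0.71, adjusted p = 0.161), Psmd11 (-0.82) and Psmc3 (-0.48) had the smallest p of the lower genes, and Psmb6 (0.31), Psmb3 (0.30) and Psmd4 (0.15) of the higher. Without replicate 2, the high-mitochondrial library, the median was 0.02 with 0 called and 4 at an unadjusted p under 0.05; without replicate 1 it was -0.74 with 23 called lower (all genes -0.89, 50.7% called), where the lone library is assumed to vary like the other groups.

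The NLG919 step with the free form, Free-MK1775+NLG919 against Free-MK1775, had 0 of 35 called by limma (0% of all genes) and 0 at an unadjusted p under 0.05 (11.6% of all genes). The median was -0.34 (all genes -0.44), or 0.12 under median-of-ratios scaling, and libraries did not overlap for 1 higher and 12 lower genes, against 6.2% and 32.3% of all genes. Psmb7 (-0.92), Psmd1 (-0.46) and Psmc6 (-0.49) had the smallest p of the lower genes, and Psmb3 (0.27), Psmb6 (0.14) and Psmd4 (0.12) of the higher. Without replicate 2 of Free-MK1775+NLG919 the median was 0.00 with 0 called and 1 at an unadjusted p under 0.05, and without replicate 1 it was -0.69 with 24 called lower (all genes -0.84, 46.4% called).

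Lipo-MK1775+NLG, whose libraries have a low mitochondrial share, was close to the control in level. Limma called 0 of 35 (0.0081% of all genes), 0 had an unadjusted p under 0.05 (2.11% of all genes), and the median was 0.04 (all genes -0.02). Psmb6 (0.37, 95% interval -0.08 to 0.81), Psmb3 (0.27) and Psmb4 (0.27) had the smallest p of the higher genes and Psmd1 (-0.25), Psmc3ip (-0.25) and Psmd8 (-0.70) of the lower. Libraries did not overlap for 12 higher and 5 lower genes, against 22.4% and 24.1% of all genes.

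The comparisons of Lipo-MK1775 with other treated groups share its 2 libraries, so they repeat its level and add no independent evidence. Against Free-MK1775, Psma3 fell (-0.89, SE 0.22, adjusted p = 0.0481) and so did Psmd1 (-1.03, SE 0.21, adjusted p = 0.0411), 2 of 35 where 7.52% of all genes were called, 6.88% lower and 0.64% higher. The median was -0.62 (all genes -0.79), 16 genes had an unadjusted p under 0.05 (42.7% of all genes), and libraries did not overlap for 31 lower and 2 higher genes (71.8% and 6.42%). The smallest p among the others were those of Psma1 (-0.95) and, on the higher side, Psmb3 (0.44) and Psmd4 (0.35).

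In Lipo-MK1775+NLG against Lipo-MK1775, Psmd1 rose by 1.02 (SE 0.21, adjusted p = 0.041), 1 of 35 where 12.4% of all genes were called, 11.4% higher and 0.94% lower. Psma1 (0.89, SE 0.25, adjusted p = 0.0501) and Psma3 (0.75, SE 0.22, adjusted p = 0.0518) came next, and Psmd4 (-0.29) and Psmb3 (-0.20) were the genes below 0. The median was 0.65 (all genes 0.83), 20 genes had an unadjusted p under 0.05 (46.3% of all genes), and libraries did not overlap for 32 higher and 2 lower genes (74.6% and 6.59%). Under median-of-ratios scaling 0 genes were called by limma in either of these comparisons, with 8 and 10 at an unadjusted p under 0.05 and medians of 0.19 for Lipo-MK1775 against Free-MK1775 and -0.19 for Lipo-MK1775+NLG against Lipo-MK1775. Both counts fell to 0 without either library of the control, of Free-MK1775, of Lipo-MK1775 or of Lipo-MK1775+NLG, with 6 to 13 and 5 to 11 genes at an unadjusted p under 0.05. They rose to 27 and 28 without either Free-MK1775+NLG919 library, where 54.5% and 57.1% to 57.2% of all genes were called.

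Lipo-MK1775+NLG against Free-MK1775+NLG919 compares the forms in the presence of NLG919. Limma called 0 of 35 (0.0162% of all genes), with 1, Psmb7 (0.95), at an unadjusted p under 0.05 (13.8% of all genes). Psmd11 (0.70) and Psmd3 (0.63) came next, and Psmd4 (-0.07) and Psmb3 (-0.04) were the genes below 0. The median was 0.37 (all genes 0.48), or -0.15 under median-of-ratios scaling, and libraries did not overlap for 15 higher and 0 lower genes, against 41.7% and 7.23% of all genes. Without Free-MK1775+NLG919 replicate 2 the median was 0.03 with 0 called and 0 at an unadjusted p under 0.05, and without replicate 1 it was 0.69 with 23 called higher (all genes 0.88, 49.02% called).

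Ratios of genes within a library are free of any scaling between libraries, and among proteasome genes several of them separated the high-mitochondrial libraries from the rest. Psmb3 over Psmb7 was 1.18 and 1.16 in the control, 1.29 and 1.14 in Free-MK1775 and 1.38 and 1.42 in Lipo-MK1775+NLG. It was 3.01 and 3.03 in Lipo-MK1775, and 1.58 and 4.94 in replicates 1 and 2 of Free-MK1775+NLG919. Psmd4 over Psmd14 was 1.17 and 1.22 in the control and 2.72 and 3.35 in Lipo-MK1775, with 1.43 and 3.07 in Free-MK1775+NLG919. Psmb6 over Psmb7 was 0.781 and 0.731 in the control, 1.52 and 1.61 in Lipo-MK1775 and 1.11 and 2.99 in Free-MK1775+NLG919. In each ratio the 3 high-mitochondrial libraries lay above the other 7, but the genes of these ratios were chosen with their levels known. Psmb3 and Psmd4 were highest, and Psmb7 and Psmd14 lowest, in those 3 libraries. The order of Psmb3 over Psmb7 and of Psmd4 over Psmd14 was thus fixed by the choice and adds no evidence to the levels. The share of all gene pairs with this order was not computed.

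The 3 immunoproteasome subunits were all above the control in both Lipo-MK1775 libraries, as they were in both Free-MK1775 libraries, and limma called 0 of them. Libraries did not overlap on the higher side for 7.69% of all genes in Lipo-MK1775 and 13.2% in Free-MK1775. The Lipo-MK1775 differences were also above 0 under median-of-ratios and quantile scaling, but on deposited FPKM without rescaling Psmb8 was at -0.10 and Psmb9 at -0.32. Psmb10 stood at 211 and 199 in the control, 295 and 219.5 in Free-MK1775, 353 and 171 in Free-MK1775+NLG919, 344 and 299 in Lipo-MK1775 and 239 and 251 in Lipo-MK1775+NLG. Psmb10, which replaces Psmb7, stood 0.64 (SE 0.33, adjusted p = 0.144) from the control in Lipo-MK1775, and its ratio to Psmb7 was 0.888 and 0.755 in the control and 2.68 and 2.14 in Lipo-MK1775. Over all libraries that ratio ran from 0.755 to 1.58 at low mitochondrial share and from 2.14 to 2.68 at high share.

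Psmb8 was the highest of the 3 and exceeded Psmb5 in every library. The control libraries held Psmb8 at 415 and 377 nuclear TPM, those of Free-MK1775 at 511 and 451, of Free-MK1775+NLG919 at 611 and 256, of Lipo-MK1775 at 474 and 537 and of Lipo-MK1775+NLG at 354 and 450.0. Its ratio to Psmb5, which it replaces, was 2.96 and 2.31 in the control, 4.06 and 4.43 in Lipo-MK1775 and 1.93 and 2.54 in Lipo-MK1775+NLG. For Psmb9 the levels were 147 and 149.8 nuclear TPM in the control, 152 and 160.2 with Free-MK1775, 244 and 46.4 with Free-MK1775+NLG919, 159 and 165 with Lipo-MK1775 and 158 and 163 with Lipo-MK1775+NLG. Psmb9 over Psmb6 lay between 0.641 and 0.988 in 9 libraries and at 0.207 in Free-MK1775+NLG919 replicate 2. Limma called 0 of the 3 in each of the 8 comparisons, with 0 at an unadjusted p under 0.05, while under median-of-ratios scaling Psmb10 (1.53) and Psmb8 (1.24) were called higher in Lipo-MK1775.

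**Figure D3:**
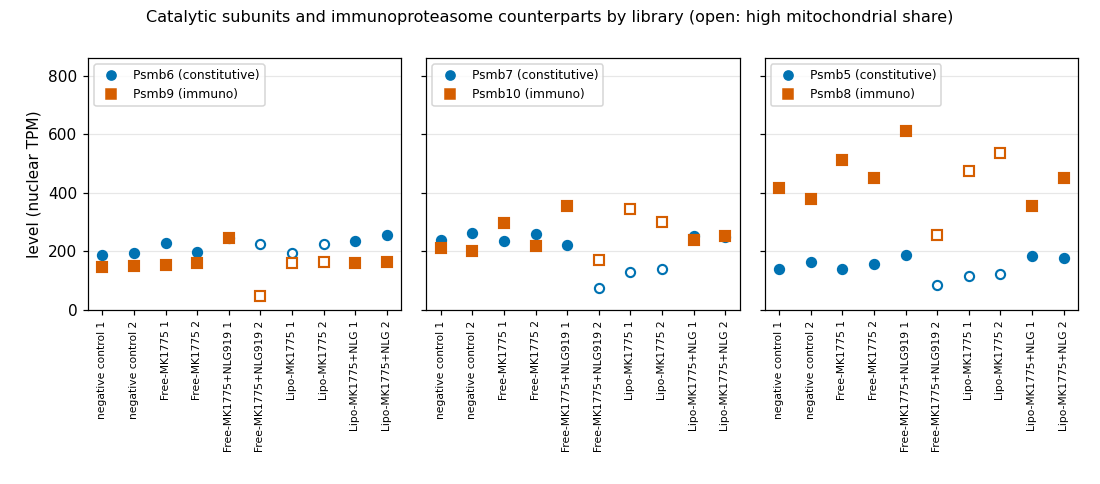
Level (nuclear TPM, linear axis from 0) of the active beta subunits (circles) and their immunoproteasome counterparts (squares) in each library, open for the 3 of high mitochondrial share. Psmb7 lies below Psmb10 in all 3 open libraries, at 75.0 to 140 against 171 to 344, and Psmb8 lies above Psmb5 in all 10. Psmb7 also lies below Psmb10 in Free-MK1775 replicate 1, Free-MK1775+NLG919 replicate 1 and Lipo-MK1775+NLG replicate 2, where Psmb10 over Psmb7 was 1.26, 1.58 and 1.003.

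Transcript length went with the size of the difference in Lipo-MK1775. The FPKM-weighted length of the 35 ran from 769.7 bases (Psmb3) to 4357 (Psmd5), with a median of 1579.5, against 2731 for all genes tested. Across the genes, Pearson's r of log2 length with the Lipo-MK1775 difference was -0.41 (35 genes), -0.55 without Psmd8 (34 genes) and -0.44 over all genes tested. This sign was not particular to Lipo-MK1775. In the same order r was -0.34, -0.47 and -0.13 in Lipo-MK1775+NLG against the control, where both groups have a low mitochondrial share. It was -0.32, -0.39 and -0.38 in Free-MK1775+NLG919 and -0.08, -0.19 and -0.13 in Free-MK1775. In each comparison the genes share the same 4 libraries and are not independent, and the part of length in the differences was not tested.

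**Figure D4:**
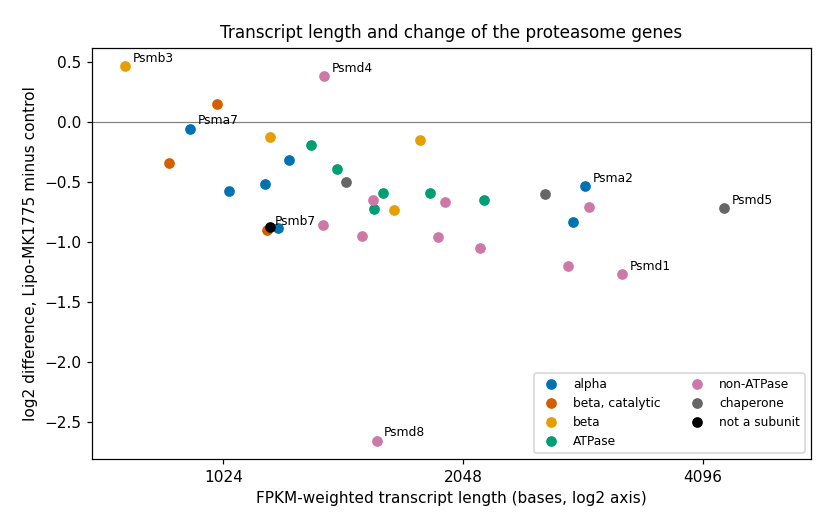
FPKM-weighted transcript length (bases, log2 axis) against the log2 difference of Lipo-MK1775 from the control for the 35 proteasome genes, coloured by role. Psmb3, the shortest, has 0.46 and Psmd1, at 3245 bases, -1.27; these differences are relative to nuclear transcripts, and under median-of-ratios scaling 27 of the 35 lie above 0.

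Over all 10 libraries the proteasome genes had mostly high correlations with each other, and over the 7 of low mitochondrial share the correlations centred near 0. The median Pearson r over 595 pairs of genes was 0.81 with 10 libraries and 0.02 with 7, on log2 nuclear TPM from shared libraries. The same median over pairs of all genes was not computed. As 53.2% of all genes were lower in all 3 high-mitochondrial libraries on this scale, 0.81 cannot be read as particular to the proteasome. Nfe2l1, with r of 0.972 to the mean of the set over 10 libraries, ranked only 554. For the 3 immunoproteasome subunits it was 0.86 and 0.79. The non-members closest to the mean profile of the set over 10 libraries were Polg, Jrkl, Marchf6, Dennd6a, Rab35, Abhd13, Pcnx4, Ptdss1, Ints2 and Scamp2, with r from 0.992 to 0.996. Over the 7 libraries they were Adck1, Ercc4, Zfr2, Telo2, Ncoa5, Ankrd24, Gm20633, Zfp638, Gtpbp8 and H2-Q1, with r from 0.918 to 0.986. Among the members themselves Psmd8, by its named transcripts, had r of 0.909 with that mean over the 7 libraries, and the next, Psmc5, had 0.615. The list over 7 libraries may thus largely describe Psmd8, whose level depended on how transcripts were assigned. Psmb3 and Psmd4 had r of -0.74 and -0.92 with the mean of the set over 10 libraries.

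Other genes of the pathway, 38 in lists by role, had 1 called higher and 13 lower in Lipo-MK1775 against the control, where 1.6% of all genes were called higher and 25.2% lower. Of 5 genes that act on proteasome gene transcription, Nfe2l2 fell in Lipo-MK1775 (-1.28, SE 0.27, adjusted p = 0.0255), from 156 and 150.1 to 73.1 and 53.1 nuclear TPM; Nfe2l1 was at -1.13 (SE 0.45, adjusted p = 0.0813) and its activating protease gene Ddi2 at -1.06. Of 6 further proteins bound to the regulatory particle, the deubiquitinase gene Usp14 (-1.55) and the ligase gene Ube3c (-1.61) fell. Of 5 activators and inhibitors, Psme3 (-1.05) and Psme4 (-1.60) fell, while the interferon-linked Psme1 (0.33) and Psme2 (0.27) did not pass. Of 5 assembly factors, Psmg2 fell (-1.01), and Pomp, which helps to form the core particle, was at 0.43 (SE 0.20, adjusted p = 0.113).

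Upstream of the proteasome, 5 of 11 shuttle and unfolding genes fell in Lipo-MK1775 and 0 rose (25.2% and 1.6% of all genes): the unfoldase Vcp (-1.19), Zfand2a (-1.96), Zfand5 (-1.15), and Rad23b (-1.32) and Ubqln2 (-1.26), which carry ubiquitin-tagged proteins to the proteasome. Of 6 ubiquitin genes, the activating enzymes Uba1 (-1.01) and Uba6 (-2.49) fell and Rps27a, which encodes ubiquitin joined to a ribosomal protein, rose (0.79). A list of 24 other ribosomal protein genes was also higher in Lipo-MK1775 for all 24, with a median of 0.49 and 5 called. Uba6 was a low gene, at 0.200 and 0.174 nuclear TPM in Lipo-MK1775 and 10.4 and 2.90 in the control, so the size of its differences is uncertain. All 14 genes kept the sign of their difference under median-of-ratios and quantile scaling, and Zfand2a alone was still called under each. Set against other housekeeping complexes within a library, the median proteasome gene was lower relative to the median of 24 ribosomal protein genes in the 3 high-mitochondrial libraries (-4.85 to -4.60 on the log2 scale) than in the other 7 (-3.62 to -3.31). Relative to the median of 8 TRiC chaperonin genes it was at -1.18 to -1.05 against -0.97 to -0.72. In Lipo-MK1775+NLG against Lipo-MK1775, 5 of the 38 were called (12.4% of all genes): Nfe2l2 (1.31), Vcp (1.20), Zfand5 (1.33), Zfand2a (1.49) and Uba6 (3.45) rose, and in Lipo-MK1775 against Free-MK1775, where 7.52% of all genes were called, Nfe2l2 (-1.36), Zfand2a (-1.40) and Uba6 (-3.28) fell. Against the control the groups other than Lipo-MK1775 had 0 of the 38 called by limma, with 0 in Free-MK1775, 11 in Free-MK1775+NLG919 and 2 in Lipo-MK1775+NLG at an unadjusted p under 0.05. The smallest p were those of Uchl5 (-0.56), Zfand2a (-0.55) and Pomp (0.34) in Free-MK1775, Zfand2a (-1.60), Pomp (0.75) and Psme3 (-0.85) in Free-MK1775+NLG919, and Rad23b (-0.91), Pomp (0.47) and Ecpas (-0.97) in Lipo-MK1775+NLG.

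Summed markers of cell types of a tumour overlapped between the same libraries, except those of endothelial cells. Endothelial markers (6 of 6 genes) stood at 20.6 to 51.6 nuclear TPM in the high-mitochondrial libraries and at 78.5 to 141 in the others, without overlap. Of all genes tested, 53.2% had that order on this scale. Skeletal muscle markers (6 of 6) overlapped at 7.10 to 64.4 against 60.2 to 532, as did epithelial markers at 942 to 1473 against 1302 to 1899. Neutrophil markers (9 of 10) overlapped at 551 to 1971 against 828 to 2377, macrophage markers (10 of 10) at 2872 to 3531 against 2927 to 6918, T and NK cell markers (9 of 10) at 22.8 to 70.0 against 46.8 to 103 and fibroblast markers (8 of 8) at 174 to 755 against 294 to 624. Sums can hide changes of single markers. In Lipo-MK1775 against the control 9 of 9 neutrophil markers were lower (median -1.17), 5 without overlap and 1 called. Skeletal muscle markers were lower without overlap for 6 of 6, with 0 called, against 72.8% of all genes without overlap and lower. T and NK cell markers were mixed, with 5 higher and 4 lower. Of the tested markers 0 were at 0, and the part of cell mixture in the proteasome values was not tested.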

How the data were processed

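Deposited values are FPKM per transcript, which the authors made from tumour RNA with FastQC, Trim Galore, HISAT2 and StringTie on GRCm39, per the submitters' processing notes; versions and the strand setting are not stated in the sources used here. Without strand, reads of overlapping or antisense genes cannot be told apart, and reads may be shared with pseudogene copies.

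The 161762 transcripts were summed by gene name (21051 without a name were left out), and FPKM was divided by the library sum outside the mitochondrial genome and multiplied by 1000000. Genes with 1 FPKM or more in 2 or more libraries were tested: log2(value + 1) in 1 fit by limma 3.58.1 in R 4.3.3, with group means and a variance trend, two-sided, Benjamini-Hochberg over 12345 genes. Fold changes on this scale understate the change of low genes. Named were the active subunits and their counterparts, the ends of each ring's range, the 3 smallest p per direction and comparison, and, from the other lists, genes called or, with 0 called, the 3 smallest p. Members and lists were chosen with earlier results of these data known. Alternatives were other pseudocounts, filters, scalings, designs and each library left out; the interaction and scaling to the median proteasome gene were added after the data had been seen.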

Additional observations from a re-analysis of the deposited data

Results flagged for a closer look

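The NLG919 step, Lipo-MK1775+NLG minus Lipo-MK1775 compared with Free-MK1775+NLG919 minus Free-MK1775, differed between the forms for 10 proteasome genes by an interaction term in limma, added after the data had been seen. The difference of the 2 steps on the log2 scale was 1.27 for Psma1, 1.16 for Psma3, 1.83 for Psmb7, 1.19 for Psmc1, 1.08 for Psmc6, 1.48 for Psmd1, 1.54 for Psmd3, 1.66 for Psmd11, 1.34 for Psmd12 and 1.42 for Psmd14 (adjusted p = 0.0344 to 0.0474). In each the step was upward with the Lipo form and downward with the free form. The same term was called for 30.6% of all genes tested, with a median of 1.28, against 1.02 for the 35. Limma called it for 0 of the 35 under median-of-ratios scaling and under quantile scaling, with 10 and 11 at an unadjusted p under 0.05, and for 19 of 35 that p was under 0.05 on the reported scale (51.5% of all genes). Both Lipo-MK1775 libraries and Free-MK1775+NLG919 replicate 2, which both enter the term with a minus sign, are the 3 of high mitochondrial share. Without Free-MK1775+NLG919 replicate 2 the median over the 35 was 0.57 with 15 called (all genes 0.88, 32.2% called), without replicate 1 the term was called for 32 (67.0% of all genes), and without any 1 of the other 8 libraries 0 were called.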

How the results depend on the processing

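In Lipo-MK1775 against the control 8 genes were called, and calls in the other settings were lower unless stated. The count was 1 with no filter, 22 on deposited FPKM, 3 (0 lower) with median-of-ratios and 2 (1 higher and 1 lower) with quantile scaling. It was 14 with assembled transcripts added, 2 with no variance trend and 26 (24 lower and 2 higher) with only the 2 groups fitted. In this order these fits called 2.95%, 48.2%, 6.50%, 4.87%, 49.8%, 24.8% and 50.1% of all genes. In Lipo-MK1775+NLG against Lipo-MK1775 (1 called) the same settings gave 0, 25, 0, 0, 10, 0 and 25 (0.183%, 54.8%, 0.956%, 0.608%, 45.7%, 6.58% and 50.4% of all genes), a filter at FPKM 5 gave 6 (20.8%) and a pseudocount of 5 gave 2 (12.8%). In Lipo-MK1775 against Free-MK1775 (2 called) they gave 0, 23, 0, 0, 9, 0 and 20 (0.226%, 48.3%, 0.948%, 0.867%, 39.3%, 2.45% and 36.1%). For the difference of the NLG919 steps (10 called) they gave 0, 17, 0, 0, 16 and 3, the last with no variance trend (0.0934%, 46.99%, 0.332%, 0.162%, 54.6% and 26.7%). Scaling to the median proteasome gene, chosen after the data had been seen, gave 0 in each of these 4 (5.12%, 1.03%, 1.22% and 0.284%). The other 5 comparisons had 0 called in each setting with all libraries. The cause of these moves was not tested, except that no filter adds genes to the adjustment.

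Leaving out 1 library gave 0 to 29 calls in Lipo-MK1775 against the control, 0 to 28 in Lipo-MK1775+NLG against Lipo-MK1775, 0 to 27 in Lipo-MK1775 against Free-MK1775, 0 to 32 for the difference of the steps, 0 to 23 in Free-MK1775+NLG919 against the control, 0 to 24 against Free-MK1775 and 0 to 23 in Lipo-MK1775+NLG against Free-MK1775+NLG919. Where a group was left with 1 library, that library was assumed to vary like the others. With the replicate number as a block the pairing gave 8 calls in Lipo-MK1775 against the control, where 19.9% of all genes were called. It gave 0 in Lipo-MK1775+NLG against Lipo-MK1775 (0.429% of all genes) and 0 in Lipo-MK1775 against Free-MK1775 (0.632%). For the difference of the steps it gave 7 (19.98%). The replicate numbers are shared in name only, as deviations of same-numbered libraries correlated at -0.218 to 0.0725 between groups.

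Under median-of-ratios scaling Psma1 was 0.000658 and Psma3 0.0514 in Lipo-MK1775 against the control, and the difference of the steps was -0.0782 for Psma1, -0.181 for Psma3, -0.155 for Psmc1 and -0.268 for Psmc6. Over the 138 named pairs of gene and comparison and all settings, 2222 values stayed called, or stayed not called and changed by less than their SE. Another 227 stayed not called and changed by the SE or more, 549 lost the call and 87 gained it. In 6 the sign reversed for a value that was called in the reported or the alternative fit. A change of sign in a value called in neither fit is not counted as reversed. The table gives no counts, so no limit of detection could be set for Psma8 and Psmb11.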
